A study of Homo sapiens with 9 samples.

Results

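ATP-binding cassette (ABC) transporter genes were examined in OVCA433, an established human ovarian serous adenocarcinoma line, after knockdown of MPZL3. The members were the protein-coding genes whose symbol is ABCA to ABCG followed by a number, 44 of the 58676 genes in the count table, of which 30 reached at least 10 counts in 3 libraries. RNA-seq had been carried out on 9 libraries of poly(A) RNA, 3 in each of 3 groups lettered A, B and C. The control group carried an shRNA control vector, labelled wild type. The other groups carried shRNA#1-MPZL3 (hairpin 1) or shRNA#3-MPZL3 (hairpin 3). All 3 groups had been transduced with lentivirus and selected with puromycin, so the controls share the vector and the drug. Knockdown was by shRNA and left some MPZL3 transcript, and all groups came from 1 cell line.

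ABC transporters are membrane proteins that use ATP bound at paired nucleotide-binding domains to move substrates across a lipid bilayer. ABCA members mostly handle lipids, and ABCB holds full transporters of the plasma membrane together with transporters of mitochondria and lysosomes. ABCC holds the multidrug resistance-associated proteins, ABCD the fatty acid transporters of the peroxisome, and ABCG transporters of sterols and drugs. ABCE1 and the ABCF proteins keep the ATP-binding domains but have no membrane domain, and act at the ribosome. In ovarian cancer the family is best known for the pumps that expel cytotoxic drugs, such as ABCB1, ABCC1 and ABCG2.

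Library totals ran from 16850854 to 23890191 counts, and the ABC members took 0.103% to 0.119% of them. MPZL3 itself was at 15.6 to 21.9 CPM (counts scaled to a library size of 1e6) in the controls, 1.8 to 1.98 CPM with hairpin 1 and 0.988 to 1.94 CPM with hairpin 3, a log2 fold change of -3.49 ± 0.192 (SE) over the 6 knockdown libraries (edgeR adjusted p = 6.887e-08). Of 9 ovarian epithelial markers 8 were tested, and 2 rose and 5 fell in the pooled comparison. EPCAM went from 403 CPM in the controls to 5.48 and 8.93 CPM with hairpins 1 and 3, KRT19 from 1550 to 132 and 87 CPM and MUC16 from 3.18 to 0 CPM, KRT8 fell by 1.18 and KRT18 by 1.41 on the log2 scale, PAX8 rose by 1.07, and WT1 had 0 counts in all libraries. The summed level of 5 fibroblast markers was 1.89 to 2.48 CPM in the controls, 13.7 to 27.9 CPM with hairpin 1 and 16.7 to 23.3 CPM with hairpin 3, with DCN at 0. The summed level of 4 endothelial markers was 0.547 to 1.02, 4.16 to 6.64 and 5.12 to 7.5 CPM in the same order, and that of 5 leukocyte markers was 0.812 to 2.18, 0.429 to 1.22 and 0.184 to 0.824 CPM. The part of these shifts in the changes below was not tested. The p-values measure the spread between libraries of 1 line, and fewer cells expressing a gene cannot be told apart from less RNA per cell.

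The 3 most abundant members per length were of the kind with no membrane domain, although ABCF2, of the same kind, ranked lower. On the scale of CPM per kb of gene length, the control level was 39.6 ± 0.342 for ABCF1 (SD, n = 3), an ATP-binding protein of translation initiation. It was 24.9 ± 3.38 for ABCE1, which splits ribosomes after termination, and 22 ± 2.62 for ABCF3, a relative of ABCF1. ABCE1 and ABCF3 did not differ beyond their spread. ABCD3, a peroxisomal transporter, followed at 16.6 ± 0.975, then ABCB10, a mitochondrial transporter, at 14.2 ± 2.26, and ABCC1, the first-named multidrug resistance-associated protein, at 10.6 ± 0.791. ABCA2 was next at 7.76 ± 0.988 CPM per kb, ABCF2 was at 6.49 ± 0.243 and ABCB8 at 5.86 ± 0.933. The level of ABCF2 is uncertain, since it shares exon bases with another gene, as given below. The other members described here were under 4 CPM per kb in the controls, and 6 of them, ABCA4, ABCA9, ABCA10, ABCA12, ABCA13 and ABCB6, were under 0.123.

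**Figure D1:**
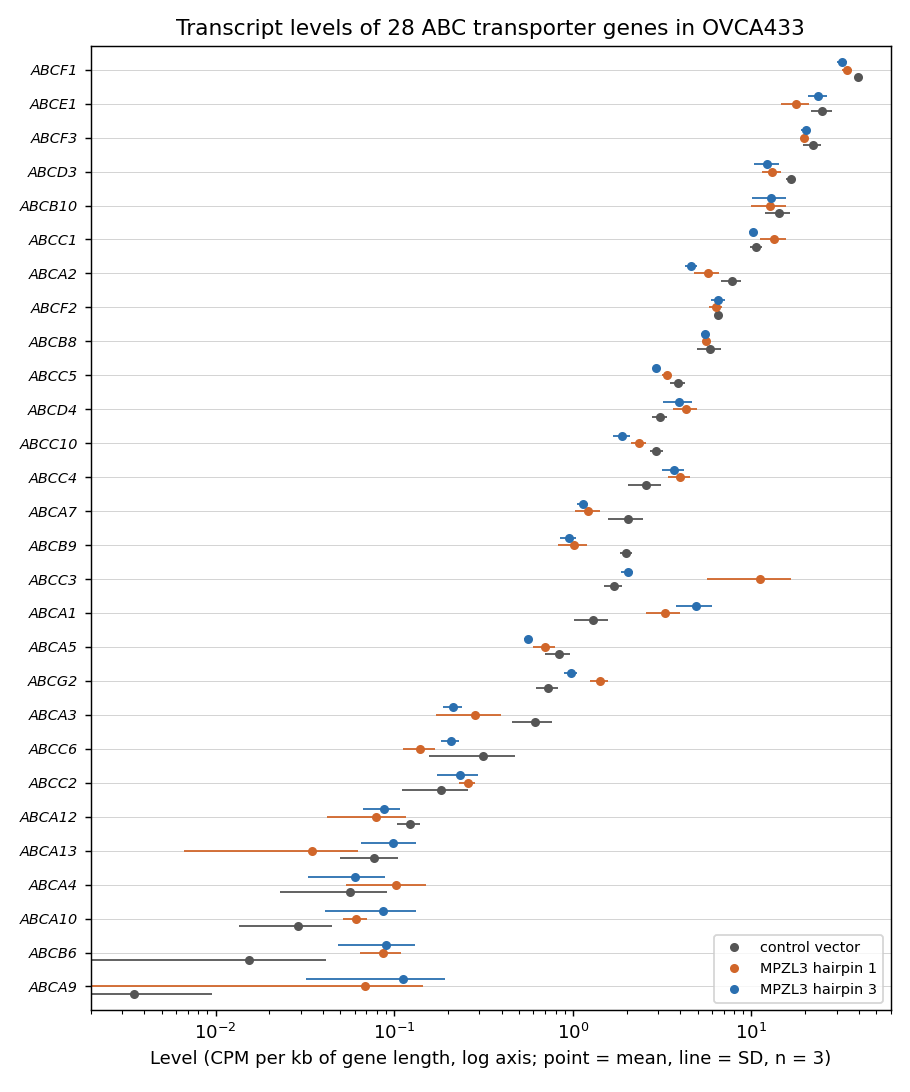
Level of 28 members that passed the minimum, in CPM per kb of gene length on a log axis, sorted by the control mean, with points for the mean and lines for the SD of 3 libraries (lines that go below the axis are clipped). ABCF1, ABCE1 and ABCF3 head the order at 39.6, 24.9 and 22 in the controls, and ABCC3 with hairpin 1 stands apart from its other groups at 11.2.

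The pump most often linked to multidrug resistance, ABCB1 or P-glycoprotein, was not detectable at this depth above 2 counts in any library. A further 13 members stayed under the minimum. ABCC8, a subunit of ATP-sensitive potassium channels, had 0 counts in all libraries, which allows up to 3 counts a library. ABCA8, ABCB5, ABCC9, ABCC11, ABCC12, ABCD2, ABCG1, ABCG5 and ABCG8 reached at most 7 counts in a library, ABCG4 and ABCB11 at most 9, and ABCB4, a phospholipid flippase, 10 in 1 library of hairpin 3. ABCG1, which passes cholesterol to lipoproteins, was therefore not measurable beside ABCA1. ABCB11, the bile salt export pump, had 0 counts in the 3 controls, 3, 5 and 9 with hairpin 1 and 0, 1 and 0 with hairpin 3. Its mean with hairpin 1 was at least 1.78-fold higher than the level of 3 counts in each control library, and no test was made.

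By subfamily, 10 of 11 ABCA, 5 of 9 ABCB, 7 of 11 ABCC, 3 of 4 ABCD, 1 of 1 ABCE, 3 of 3 ABCF and 1 of 5 ABCG members passed the minimum. A member was called when its adjusted p was under 0.05 in edgeR's quasi-likelihood test over all 16068 genes that passed. With hairpin 1, 8 of the 30 rose and 7 fell, against 18% and 19.7% of all genes tested. With hairpin 3, 5 rose and 9 fell, against 16.5% and 18%. With both hairpins pooled against the controls, 6 rose and 8 fell, against 15.9% and 17%. ABCA9, ABCA10 and ABCB6 reached 10 counts in no control library and passed the minimum through the knockdown libraries alone, so their values are given as a description. They made up 2 of the 8 that rose with hairpin 1, 3 of the 5 with hairpin 3 and 2 of the 6 pooled. Without them, 6 of 27 rose with hairpin 1, 2 with hairpin 3 and 4 pooled. No p-value is given for them. The median log2 fold change was -0.12 with hairpin 1 and -0.07 with hairpin 3 over the members, and 0.001 and -0.003 over all genes. The median absolute log2 fold change was 0.48 and 0.43 over the members and 0.33 and 0.31 over all genes. The member medians are over all 30, with ABCA9, ABCA10 and ABCB6 included, so the filter has a part in them. Both hairpin comparisons share the same 3 control libraries.

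Between the hairpins, ABCC3 and ABCC1 were lower with hairpin 3 than with hairpin 1 and none was higher, against 5.28% and 6.3% of all genes. A fit with a replicate block called 3 members higher and 5 lower, and 1953 and 1734 of all 16068 genes. Leaving out ABCA9 and ABCB6, which passed the minimum through the knockdown libraries alone, ABCA1 rose and ABCA3 fell with each hairpin by at least 1 on the log2 scale, against 5.56% and 6.24% of all genes. ABCB9 came close to that limit, at -0.97 with hairpin 1 and -1.07 with hairpin 3.

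**Figure D2:**
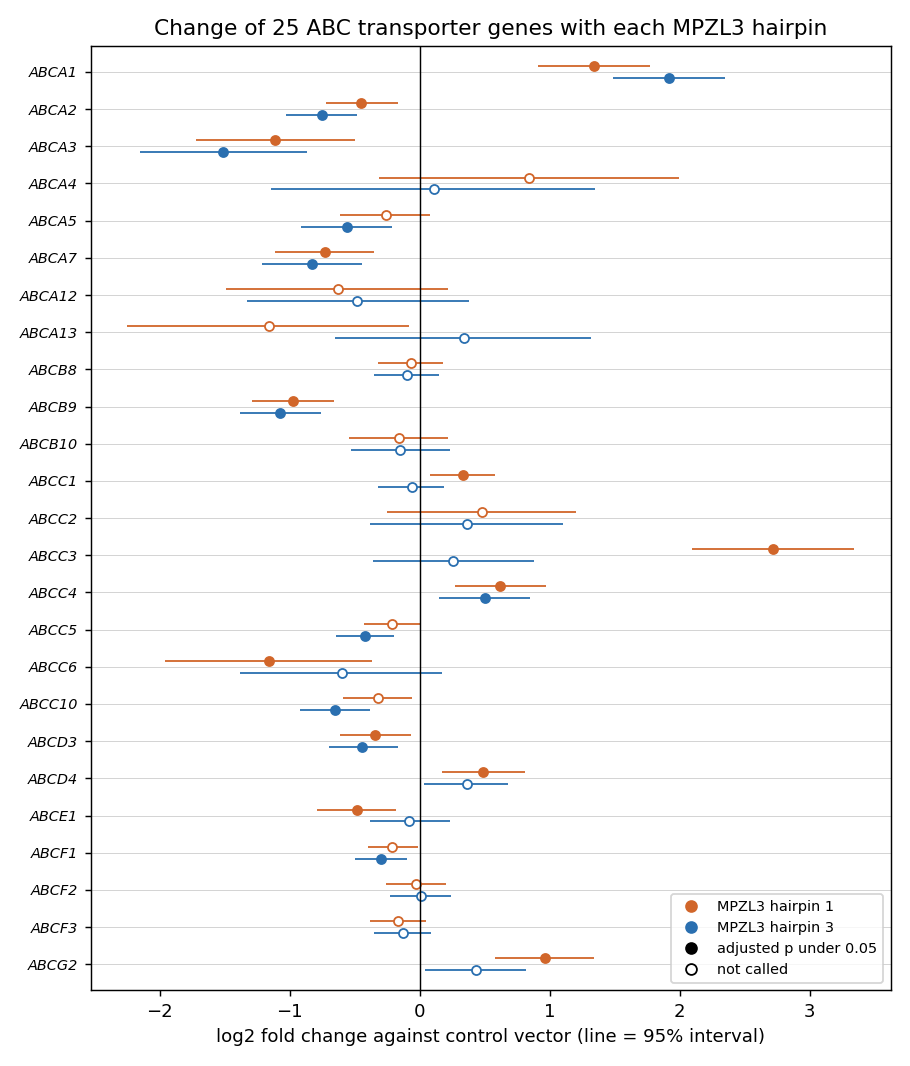
Log2 fold change of 25 members against the control vector for hairpin 1 and hairpin 3, with lines for the 95% interval and filled points for adjusted p under 0.05. ABCA9, ABCA10 and ABCB6, near 0 in the controls, are left out. ABCC3 is at 2.72 with hairpin 1 and 0.26 with hairpin 3, and ABCA1 is to the right with both.

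Among the drug pumps, ABCC3 showed the largest difference between the hairpins. ABCC3 (ENSG00000108846, chr17:50634777-50692252, plus strand, hg38), or MRP3, exports glucuronide conjugates and bile salts. It was at 18.4, 14.6 and 15.9 CPM in control libraries A, B and C, at 54.4, 161 and 106 CPM with hairpin 1, and at 19, 18.3 and 21.2 CPM with hairpin 3. Every hairpin 1 library lay above all the others, while the hairpin 3 and control ranges overlapped. On the log2 scale the change was 2.72 ± 0.29 (SE) with hairpin 1, or 6.58-fold (edgeR adjusted p = 6.87e-06), and 0.26 ± 0.287 with hairpin 3 (edgeR adjusted p = 0.5341, 95% interval -0.36 to 0.88). Hairpin 3 minus hairpin 1 was -2.46 ± 0.287 (edgeR adjusted p = 0.0001193). Pooled over both hairpins the change was 1.96 ± 0.71 and missed the threshold (edgeR adjusted p = 0.05261). That pooled call passed without any 1 of the hairpin 3 libraries A, B or C (adjusted p = 0.0284, 0.0282 and 0.03062), with no filter on low counts (0.009078), with DESeq2 (0.03479) and in the 3-group model (1.49, adjusted p = 0.0004423). The 50 tested genes nearest to ABCC3 had a median log2 fold change of 0.11 with hairpin 1.

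ABCC1 (ENSG00000103222, chr16:15949577-16143074, plus strand), or MRP1, exports glutathione conjugates and anthracyclines. It was at 75.5, 78.2 and 87 CPM in controls A, B and C, at 87.6, 120 and 95.4 CPM with hairpin 1 and at 73.7, 75.8 and 81.1 CPM with hairpin 3. The lowest hairpin 1 library was only just above the highest control. Its log2 fold change was 0.33 ± 0.117 with hairpin 1 (edgeR adjusted p = 0.04021), -0.06 ± 0.117 with hairpin 3 (edgeR adjusted p = 0.7341) and -0.39 ± 0.117 for hairpin 3 minus hairpin 1 (edgeR adjusted p = 0.04676). Both calls were lost in several settings. The hairpin 1 call went without control A or B, hairpin 1 B or C or hairpin 3 B, at adjusted p from 0.05162 to 0.1699, and without hairpin 1 B the change was 0.19. A fit of only the compared libraries gave 0.06412. The call between hairpins was lost without control B or C, hairpin 1 B or C or any 1 hairpin 3 library, at adjusted p from 0.05537 to 0.1626, and without hairpin 1 B the difference was -0.25. It was also lost with library totals (0.05524) and in a fit of the compared libraries alone (0.07822).

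ABCC4 and ABCG2 were higher with knockdown. ABCC4 (ENSG00000125257, chr13:95019829-95301446, minus strand), or MRP4, exports cyclic nucleotides, prostaglandins and nucleoside drugs. It was at 24.6, 19.9 and 16.1 CPM in controls A, B and C, 35.9, 27.3 and 29.9 CPM with hairpin 1 and 33.2, 26.6 and 26.2 CPM with hairpin 3. No knockdown library reached down into the control range. In log2 units the change was 0.62 ± 0.161 with hairpin 1 (edgeR adjusted p = 0.007845) and 0.5 ± 0.162 with hairpin 3 (edgeR adjusted p = 0.02736), and the difference between hairpins was -0.12, with a 95% interval of -0.46 to 0.23. The hairpin 3 call was lost without control B or C or hairpin 3 A (adjusted p = 0.08783, 0.126 and 0.1018). The pooled value was 0.56 ± 0.15 (edgeR adjusted p = 0.01267), which was lost without control B or C (adjusted p = 0.05996 and 0.077).

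ABCG2 (ENSG00000118777, chr4:88090264-88231322, minus strand), the breast cancer resistance protein, exports topoisomerase inhibitors, porphyrins and urate. It was at 3.34, 3.14 and 4.06 CPM in controls A, B and C, 7.71, 6.26 and 6.56 CPM with hairpin 1 and 5, 4.28 and 4.93 CPM with hairpin 3. The 3 groups did not overlap, with hairpin 3 in between. The log2 fold change was 0.96 ± 0.176 with hairpin 1 (edgeR adjusted p = 0.0007294) and 0.43 ± 0.181 with hairpin 3 (edgeR adjusted p = 0.08474, 95% interval 0.04 to 0.82). The difference between hairpins, -0.53 ± 0.173, did not pass (edgeR adjusted p = 0.06725), but passed with a replicate block (0.02759). Pooled, the change was 0.72 ± 0.211 (edgeR adjusted p = 0.0203), lost without control A or B (adjusted p = 0.07516 and 0.1005). The gene lies on chromosome 4, whose 588 tested genes had a median log2 fold change of -0.4 with hairpin 1 and 0.04 with hairpin 3. Relative to the median of its 50 nearest tested genes, ABCG2 was 1.25 higher with hairpin 1 and 0.31 higher with hairpin 3.

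The other MRP genes moved down or did not pass. ABCC5 (ENSG00000114770), or MRP5, an exporter of cyclic nucleotides, was at 39.5, 45.3 and 48.3 CPM in controls A, B and C, 37.5, 41 and 36.6 CPM with hairpin 1 and 33, 32.3 and 34.3 CPM with hairpin 3. Hairpin 3 lay below both other groups, and hairpin 1 overlapped the controls. On the log2 scale the change was -0.21 ± 0.102 with hairpin 1 (edgeR adjusted p = 0.1234) and -0.42 ± 0.103 with hairpin 3 (edgeR adjusted p = 0.006138). Without control A the hairpin 1 value, -0.29, passed (adjusted p = 0.04601). Pooled, ABCC5 fell by 0.31 (edgeR adjusted p = 0.03435), a call lost without control B or C or any 1 hairpin 3 library (adjusted p from 0.05846 to 0.152) and with no filter on low counts (0.0675).

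ABCC10 (ENSG00000124574), or MRP7, which carries taxanes, was at 21.5, 24.8 and 24.9 CPM in controls A, B and C, 17.3, 18.6 and 21 CPM with hairpin 1 and 13.9, 14.5 and 17 CPM with hairpin 3. All knockdown libraries were below the controls. Its log2 fold change was -0.32 ± 0.123 with hairpin 1 (edgeR adjusted p = 0.05469) and -0.65 ± 0.125 with hairpin 3 (edgeR adjusted p = 0.001206), and -0.48 ± 0.134 pooled (edgeR adjusted p = 0.01675). The hairpin 1 value passed without control A or hairpin 1 C (adjusted p = 0.03667 and 0.03702), with library totals (0.03707) or with a replicate block (0.008898). The pooled call was lost without control B or C (adjusted p = 0.07537 and 0.06994).

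ABCC6 (ENSG00000091262), the transporter mutated in pseudoxanthoma elasticum, was low, at 1.16, 2.44 and 3.54 CPM in controls A, B and C, 0.841, 1.27 and 1.07 CPM with hairpin 1 and 1.71, 1.37 and 1.61 CPM with hairpin 3. Control A lay within the range of hairpin 1. In log2 units the change was -1.16 ± 0.367 with hairpin 1 (edgeR adjusted p = 0.02348) and -0.6 ± 0.357 with hairpin 3 (edgeR adjusted p = 0.2192). With hairpin 1 the call was lost without control B or C or hairpin 1 A or C (adjusted p from 0.05779 to 0.1371), and without control C the value was -0.77. Without control A, the hairpin 3 value was -0.94 and passed (adjusted p = 0.0281), as did the pooled value at -1.2 (adjusted p = 0.01297). Pooled in the 3-group model it also passed (-0.88, adjusted p = 0.03362). The near-identical pseudogenes ABCC6P1 and ABCC6P2 held 26 and 87 counts over the 9 libraries, against 304 for ABCC6, so reads may be split among them. ABCC2, or MRP2, the canalicular conjugate pump, was at 0.647 to 1.89 CPM over all libraries and was called in no comparison, at 0.48 ± 0.336 with hairpin 1 and 0.36 ± 0.342 with hairpin 3 (edgeR adjusted p = 0.2925 and 0.4611).

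**Figure D3:**
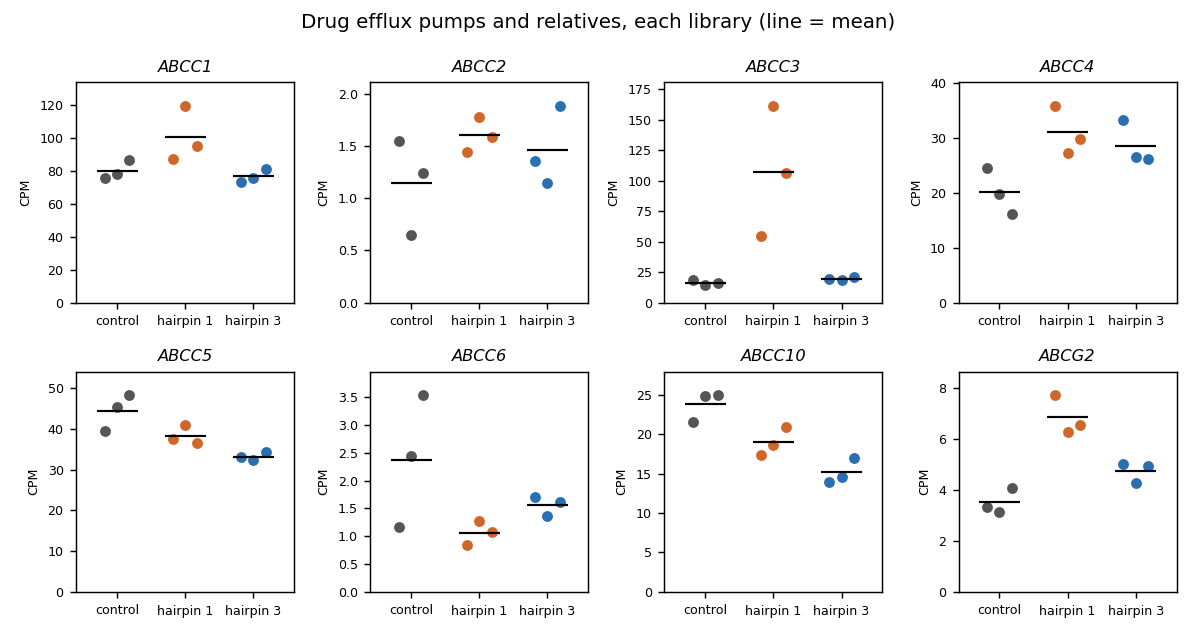
CPM of 8 drug efflux pumps and relatives in each library, with 3 points per group for replicates A, B and C and a line for the mean. ABCC3 is at 54.4 to 161 CPM with hairpin 1 against 14.6 to 21.2 CPM elsewhere, and ABCC10 is below the controls in all 6 knockdown libraries.

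Sequence upstream of a gene is where regulators of these transporters bind, so the promoters of 2 ABCA genes that moved in opposite directions and of 2 pumps that were higher are shown from RefSeq (GRCh38.p14), 250 bases before to 50 after the start. They are read along the gene's strand from chr9:104928106-104928405 (ABCA1), chr16:2340679-2340978 (ABCA3), chr13:95301402-95301701 (ABCC4) and chr4:88231577-88231876 (ABCG2), all on the minus strand. Capitals mark matches, on either strand and merged where they overlap, to the E-box CAGGTG bound by ZEB and SNAI factors, to TGACNNNGC, the core of the antioxidant response element, and to GCGTG, the core of the xenobiotic response element.
ABCA1: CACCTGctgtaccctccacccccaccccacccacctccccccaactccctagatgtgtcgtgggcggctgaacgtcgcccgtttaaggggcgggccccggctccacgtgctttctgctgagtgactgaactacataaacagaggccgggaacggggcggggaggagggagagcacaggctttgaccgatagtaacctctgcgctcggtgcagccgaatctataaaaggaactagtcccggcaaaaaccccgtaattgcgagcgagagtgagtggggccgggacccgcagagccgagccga
ABCA3: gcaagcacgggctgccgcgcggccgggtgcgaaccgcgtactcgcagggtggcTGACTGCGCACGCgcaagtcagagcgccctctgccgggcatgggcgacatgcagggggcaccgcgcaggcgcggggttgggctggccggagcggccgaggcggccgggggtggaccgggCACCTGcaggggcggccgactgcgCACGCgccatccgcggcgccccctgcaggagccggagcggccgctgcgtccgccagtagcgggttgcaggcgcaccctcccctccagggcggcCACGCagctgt
ABCC4: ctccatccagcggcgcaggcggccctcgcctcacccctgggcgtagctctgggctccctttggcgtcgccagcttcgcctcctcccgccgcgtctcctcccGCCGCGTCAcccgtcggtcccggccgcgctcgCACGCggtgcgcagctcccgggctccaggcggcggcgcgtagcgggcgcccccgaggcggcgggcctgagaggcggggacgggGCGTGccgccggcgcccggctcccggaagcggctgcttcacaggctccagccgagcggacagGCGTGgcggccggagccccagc
ABCG2: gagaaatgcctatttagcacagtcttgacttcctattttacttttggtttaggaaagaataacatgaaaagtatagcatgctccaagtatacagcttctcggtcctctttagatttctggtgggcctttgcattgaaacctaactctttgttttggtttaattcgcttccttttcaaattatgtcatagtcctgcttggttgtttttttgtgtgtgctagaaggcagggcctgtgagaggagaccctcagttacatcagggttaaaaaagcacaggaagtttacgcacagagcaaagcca
ABCA1 held 1 CAGGTG, ABCA3 held 1 CAGGTG, 1 TGACNNNGC and 3 GCGTG, ABCC4 held 1 TGACNNNGC and 3 GCGTG, and this stretch of ABCG2 none of the 3 motifs. Only 1 start per gene was examined. That of ABCG2 lay 304 bases from the gene start in the count table, in sequence of 40.3% GC with 3 CpG. Motifs at other starts of ABCG2 are not covered. Promoters of 25 of the 30 members were matched. CAGGTG was in 7 of them and in 20.6% of all 35116 RefSeq promoters, TGACNNNGC in 7 and in 13.3%, and GCGTG in 13 and in 36.5%. The median GC content was 65.3% over the 25 members and 58.7% over all promoters.

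Of the lipid transporters, ABCA1 rose and ABCA2, ABCA3 and ABCA7 fell with each hairpin. ABCA1 (ENSG00000165029, chr9:104781002-104928237, minus strand) loads cholesterol and phospholipid onto apolipoprotein A-I. It was at 13, 12.7 and 18.4 CPM in controls A, B and C, 33.5, 46.5 and 31.9 CPM with hairpin 1 and 48.3, 48.4 and 70.4 CPM with hairpin 3. The 3 groups did not overlap. The log2 fold change was 1.34 ± 0.198 with hairpin 1, or 2.53-fold (edgeR adjusted p = 0.0001238), and 1.92 ± 0.199 with hairpin 3, or 3.79-fold (edgeR adjusted p = 5.716e-06). Hairpin 3 minus hairpin 1 was 0.58 ± 0.189 and did not pass (edgeR adjusted p = 0.06609). It passed with no filter on low counts (0.0002026), with DESeq2 (0.03533) and with a replicate block (0.01475). It also passed without hairpin 1 B (0.77, adjusted p = 0.03706) or hairpin 3 A (0.68, adjusted p = 0.04953). For this difference the median of chromosome 9 was 0.22 and that of the 50 tested genes nearest to ABCA1 was 0.16. Relative to those 50, ABCA1 was 1.17 higher with hairpin 1, 1.64 higher with hairpin 3 and 0.42 higher between the hairpins. Among 21 tested genes of sterol efflux and of the LXR pathway, which switches ABCA1 on, 5 rose and 4 fell in the pooled comparison, against 15.9% and 17% of all genes. The 4 with the largest changes were APOA1, APOD, CYP27A1 and APOE. APOA1 was at 0 CPM in the controls and 0.803 and 0.391 CPM with hairpins 1 and 3. APOD went from 1.24 CPM in the controls to 0.0625 and 0.0546 CPM, below the minimum with either hairpin, so only its level is given. CYP27A1 and APOE rose by 2.01 and 0.84 (edgeR adjusted p = 0.02553 and 0.02919).

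ABCA3 (ENSG00000167972, chr16:2275881-2340746, minus strand), which fills lamellar bodies with surfactant lipid in the lung, was at 3.54, 4.88 and 5.92 CPM in controls A, B and C, 1.5, 3.2 and 1.97 CPM with hairpin 1 and 1.88, 1.48 and 1.66 CPM with hairpin 3. All knockdown libraries were below the controls. On the log2 scale the change was -1.11 ± 0.284 with hairpin 1 (edgeR adjusted p = 0.007252) and -1.51 ± 0.296 with hairpin 3 (edgeR adjusted p = 0.001291). ABCA2 and ABCA7 were also lower in every knockdown library than in any control. ABCA2, a transporter of the endolysosome, went from 77.6 to 100 CPM in the controls to 57.2 to 77.1 with hairpin 1 (log2 -0.45 ± 0.127, edgeR adjusted p = 0.01361) and 48.6 to 55.5 with hairpin 3 (-0.75 ± 0.129, adjusted p = 0.0004522). The hairpin 1 call for ABCA2 was lost without control C (adjusted p = 0.06572). ABCA7, a phospholipid exporter studied in Alzheimer disease, went from 12.7 to 20.2 CPM to 8.51 to 11.7 with hairpin 1 (-0.73 ± 0.176, edgeR adjusted p = 0.005153) and 8.83 to 10.2 with hairpin 3 (-0.83 ± 0.178, adjusted p = 0.002568).

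A chain of related ABCA genes lies on chromosome 17, where ABCA8, ABCA9, ABCA10 and ABCA5 follow each other on the minus strand. ABCA9 (ENSG00000154258, chr17:68974488-69061064) had 0, 0 and 2 counts in controls A, B and C, 5, 28 and 5 counts with hairpin 1 and 6, 33 and 20 counts with hairpin 3. All knockdown libraries were above the controls. Taking 3 counts in each control library as the floor, the mean was at least 4.28-fold higher with hairpin 1 and at least 7.04-fold higher with hairpin 3. Those bounds rested on replicate B, which held 28 of the 38 counts with hairpin 1, and without it they were 1.53-fold and 4.36-fold. Without hairpin 1 B, hairpin 3 B or hairpin 3 C the gene no longer reached the minimum. ABCA10 had 7, 6 and 2 counts in the controls, 9, 11 and 13 with hairpin 1 and 5, 16 and 22 with hairpin 3, so hairpin 3 overlapped the controls. The means of ABCA10 were 0.244 ± 0.131, 0.512 ± 0.0795 and 0.728 ± 0.382 CPM (SD, n = 3) in controls, hairpin 1 and hairpin 3. ABCA5, next in the chain and sharing 318 exon bases with ABCA10, was at 8.96 to 12.1 CPM in the controls, 7.93 to 10.4 with hairpin 1 and 7.06 to 7.83 with hairpin 3. ABCA5 fell with hairpin 3 by 0.56 (edgeR adjusted p = 0.01539) and was at -0.26 with hairpin 1 (adjusted p = 0.215). The hairpin 3 call was lost without control B or C or hairpin 3 B (adjusted p from 0.0516 to 0.06961). ABCA8 held 10 counts over all libraries.

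ABCA4, the retinoid flippase of photoreceptors, ABCA12, the ceramide transporter of the epidermis, and ABCA13 were at most 2.36 CPM and were called in none of the 4 comparisons. ABCA13 was at 2.08, 1.15 and 1.19 CPM in controls A, B and C, 1.26, 0.458 and 0.257 with hairpin 1 and 2.36, 2.14 and 1.15 with hairpin 3. Hairpin 1 A stood within the control range and above the other hairpin 1 libraries. Without it, the hairpin 1 value went from -1.16 to -2.05 (edgeR adjusted p = 0.08665 and 0.005855) and hairpin 3 minus hairpin 1 from 1.5 to 2.39 (adjusted p = 0.07137 and 0.007123). Both also passed with no filter on low counts (0.01138 and 0.001249) and with a replicate block, and the latter with DESeq2 (0.03092).

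Of the ABCB members, the mitochondrial ABCB8 and ABCB10 did not pass in any comparison. ABCB8 belongs to a potassium channel complex, and ABCB10 serves haem synthesis in red cell precursors. Their log2 fold changes against the controls lay between -0.16 and -0.07, with 95% intervals that reached from -0.54 to 0.23. ABCB9 (ENSG00000150967, chr12:122920951-122981649, minus strand), a lysosomal peptide transporter, was at 27.8, 24 and 27.4 CPM in controls A, B and C, 16.3, 12.4 and 11.6 CPM with hairpin 1 and 14.1, 12 and 11.7 CPM with hairpin 3. The knockdown groups overlapped each other and lay below the controls. Its log2 fold change was -0.97 ± 0.144 with hairpin 1 (edgeR adjusted p = 0.0001249) and -1.07 ± 0.145 with hairpin 3 (edgeR adjusted p = 6.802e-05), and hairpin 3 minus hairpin 1 was -0.1 with a 95% interval of -0.41 to 0.22. The gene shares exon sequence with AC026362.1, OGFOD2 and ARL6IP4 on the other strand, 20.7%, 12.5% and 12% of its exon bases. Those 3 held 0, 90 and 65 counts over the 9 libraries, against 3207 for ABCB9. The libraries were not directional, so reads on the shared bases cannot be told apart. TAP1 and TAP2, the ABCB-type pair that loads peptides onto MHC class I and that carries other symbols, both fell in the pooled comparison, by 0.32 and 0.74 (edgeR adjusted p = 0.04733 and 4.605e-05). CFTR was under the minimum.

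ABCB6 (ENSG00000115657, chr2:219209768-219218990, minus strand), a porphyrin transporter, had 0, 0 and 5 counts in controls A, B and C, 7, 11 and 11 with hairpin 1 and 4, 12 and 11 with hairpin 3. Hairpin 1 lay above the controls, and hairpin 3 A overlapped control C. The means were 0.0796 ± 0.138, 0.453 ± 0.117 and 0.467 ± 0.214 CPM (SD, n = 3) in controls, hairpin 1 and hairpin 3, and control C gave all of the control counts. Of the exon bases of ABCB6, 54.7% are also exons of AC068946.2, a gene annotated on the same strand that held 1 count in all libraries. Whether reads on such shared bases were counted is not given in the sources used here, so the level of ABCB6 is uncertain. The same holds for ABCF2, which shares 45.8% of its exon bases with AC021097.2. That partner held 0 counts against 5241 for ABCF2, so shared reads were not counted for both genes. Whether they were dropped or given to ABCF2 cannot be told.

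**Figure D4:**
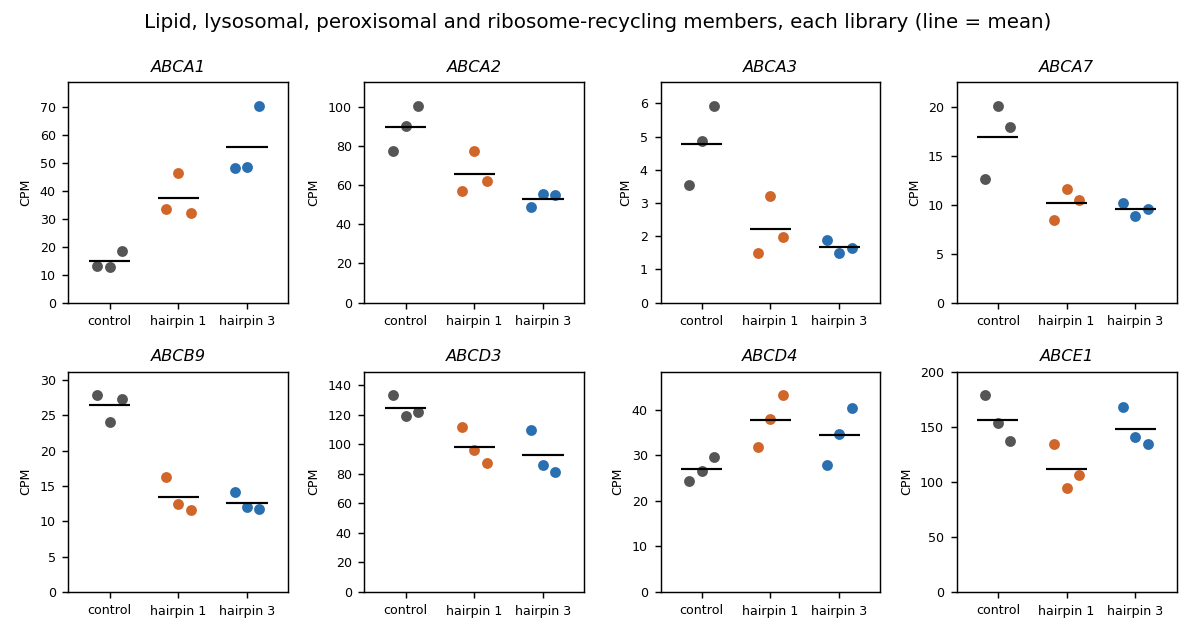
CPM of 8 members outside the drug pumps in each library, with 3 points per group for replicates A, B and C and a line for the mean. ABCA1 is above the controls in all 6 knockdown libraries, ABCA2, ABCA3, ABCA7, ABCB9 and ABCD3 are below them, and ABCE1 is lower with hairpin 1.

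In the ABCD subfamily, ABCD3 fell and ABCD4 was higher. ABCD3 (ENSG00000117528, chr1:94418455-94518666, plus strand), which imports branched fatty acids and bile acid precursors into peroxisomes, was at 119 to 133 CPM in the controls, 87.5 to 112 CPM with hairpin 1 and 81.4 to 110 CPM with hairpin 3, with no overlap with the controls. In log2 units the change was -0.34 ± 0.124 with hairpin 1 (edgeR adjusted p = 0.04466) and -0.44 ± 0.125 with hairpin 3 (edgeR adjusted p = 0.01529). The hairpin 1 call was lost without any 1 control library, hairpin 1 B or C or hairpin 3 B (adjusted p from 0.05379 to 0.1615), the hairpin 3 call without hairpin 3 B or C (0.06491 and 0.07044) and the pooled call, at adjusted p = 0.01854, without control A (0.07758). ABCD4, which acts in the lysosomal export of cobalamin, was at 24.4 to 29.7 CPM in the controls, 31.9 to 43.2 with hairpin 1 and 27.8 to 40.5 with hairpin 3. It rose with hairpin 1 by 0.49 ± 0.149 (edgeR adjusted p = 0.01999) and was at 0.36 ± 0.149 with hairpin 3 (adjusted p = 0.08501), which passed without hairpin 3 A (0.49, adjusted p = 0.01958), with no filter on low counts (0.03732) or with a replicate block (0.34, adjusted p = 0.00334). With hairpin 1 the call was lost without control A or B or hairpin 1 B or C (adjusted p from 0.05356 to 0.09017). Pooled, ABCD4 rose by 0.42 (adjusted p = 0.03527), lost without any 1 control library, hairpin 1 B or C or hairpin 3 B or C (adjusted p from 0.05145 to 0.1441). LMBRD1, the partner of ABCD4 in cobalamin export, fell by 0.72 in the pooled comparison (edgeR adjusted p = 0.01064). Of 24 genes of peroxisome assembly and beta-oxidation, 1 rose and 6 fell in the pooled comparison, against 15.9% and 17% of all genes. The 1 that rose was ACOX2, an oxidase of branched-chain substrates, at 0.13 CPM in the controls, 0.61 with hairpin 1 and 1.47 with hairpin 3. Its control level was below the minimum, so no p-value is given.

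Of the ribosome-bound members, ABCE1 fell with hairpin 1 and ABCF1 with hairpin 3. ABCE1 (ENSG00000164163, chr4:145097932-145129179, plus strand) was at 179, 153 and 137 CPM in controls A, B and C, 134, 94.8 and 106 CPM with hairpin 1 and 168, 141 and 134 CPM with hairpin 3. Hairpin 1 lay just below the controls, and hairpin 3 overlapped them. The log2 fold change was -0.48 ± 0.142 with hairpin 1 (edgeR adjusted p = 0.0159) and -0.08 ± 0.141 with hairpin 3 (edgeR adjusted p = 0.7129), and hairpin 3 minus hairpin 1, 0.4 ± 0.142, did not pass (edgeR adjusted p = 0.08781) but passed with no filter on low counts (0.01138). Without hairpin 1 A that difference was 0.55 and also passed (adjusted p = 0.01674), as it did with a replicate block (0.001161). The hairpin 1 call was lost without control A or hairpin 1 B or C (adjusted p from 0.05646 to 0.07325). Like ABCG2, the gene is on chromosome 4, and its log2 fold change with hairpin 1 was 0.24 below the median of -0.24 of its 50 nearest tested genes, and the median of the chromosome was -0.4.

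ABCF1 (ENSG00000204574, chr6:30571376-30597179, plus strand) was at 179, 181 and 178 CPM in controls A, B and C, 164, 144 and 158 CPM with hairpin 1 and 153, 149 and 135 CPM with hairpin 3, all below the controls. On the log2 scale the change was -0.21 ± 0.0908 with hairpin 1 (edgeR adjusted p = 0.09048) and -0.3 ± 0.091 with hairpin 3 (edgeR adjusted p = 0.02066), a call lost without control B or hairpin 3 C (0.06427 and 0.09787) or with no filter on low counts (0.064). The pooled call, at -0.25 and adjusted p = 0.03169, was lost without any 1 control library or hairpin 3 B or C (adjusted p from 0.05044 to 0.1021) or with no filter (0.1033). ABCF3 (ENSG00000161204, chr3:184186023-184194012, plus strand) was at 104, 109 and 130 CPM in controls A, B and C, 105, 101 and 100.2 CPM with hairpin 1 and 102, 112 and 100.2 CPM with hairpin 3. Its groups overlapped, and it was at -0.17 ± 0.0999 and -0.13 ± 0.1 with hairpins 1 and 3 (edgeR adjusted p = 0.2133 and 0.3528). ABCF2 was at 25.5 to 32.1 CPM over all libraries, and its log2 fold changes were -0.03 and 0.01 with hairpins 1 and 3, with 95% intervals of -0.26 to 0.2 and -0.23 to 0.24. Of 13 tested partners in ribosome recycling and initiation, EIF2S2 fell by 0.58 (edgeR adjusted p = 0.01204) and none rose in the pooled comparison, against 17% and 15.9% of all genes.

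Summed over the subfamily, the ABCC genes were at 22.2 ± 0.855 CPM per kb in the controls, 34.6 ± 7.45 with hairpin 1 and 21.1 ± 0.794 with hairpin 3 (SD, n = 3). The mean level of ABCC3 went from 1.7 to 11.2 CPM per kb between the controls and hairpin 1, and that of ABCC1 from 10.6 to 13.3. The ABCA sum was 12.8 ± 1.82, 11.5 ± 2.01 and 11.9 ± 1.35 CPM per kb in controls, hairpin 1 and hairpin 3, differing by less than the spread, although ABCA1 and ABCA2 had moved in opposite directions. The ABCF sum was 68.1 ± 2.23, 60.3 ± 3.07 and 58.8 ± 3.27 in the same order.

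Some members lie close together. ABCC1 and ABCC6, 5853 bases apart on chromosome 16, were at 0.33 and -1.16 with hairpin 1. ABCC5 and ABCF3, 168007 bases apart on chromosome 3, were at -0.42 and -0.13 with hairpin 3, and ABCB8 and ABCF2, 160054 bases apart on chromosome 7, lay between -0.1 and 0.01 with either hairpin. ABCA4 and ABCD3, 297322 bases apart on chromosome 1, were at 0.84 and -0.34 with hairpin 1, of which only ABCD3 was called.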

How the data were processed

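Poly(A) RNA of OVCA433 had been sequenced as non-directional libraries. The authors aligned reads to hg38 with HISAT2 2.0.5 and counted them per gene with featureCounts 1.5.0-p3, per the labels' processing notes, and the deposited values are raw read counts for 9 libraries. The 9 libraries were grouped by their titles, 3 per group. The methods describe 3 biological replicates and an empty vector control.

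Counts were analysed with edgeR 4.0.16 (limma 3.58.1, R 4.3.3), with TMM scaling and quasi-likelihood tests on the 16068 genes with at least 10 counts in 3 libraries (99.893% of counts) and Benjamini-Hochberg adjustment over all of them. The pooled comparison used a model of 6 knockdown against 3 control libraries, and the hairpin comparisons a 3-group model of all 9. Neither model had a replicate term, so the main p-values do not use the letters. CPM used TMM-scaled library totals. Per-length values divide by the gene length in the table. Totals of 16850854 to 23890191 counts set the precision, and limits from counts cover counting error only. The scripts were tested on simulated counts. Same-letter deviations from the group means correlated at 0.148 to 0.433 between controls and hairpin 3, so the letters paired those libraries by the limit of 0.1, and not at all letters between controls and hairpin 1 (0.0573 to 0.442) or between the hairpins (0.0829 to 0.483). DESeq2 1.42.0, other filters and scalings, a replicate block and leaving out each library were the alternatives.

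The members and gene lists were chosen with earlier results of these data known. Every member over the minimum was named, except that some genes are not reported here, and these still count in the totals. Full values were given for the drug pumps, for members called with both hairpins in 1 direction by at least 1 on the log2 scale, for those called between hairpins and for the 3 highest per-length control levels. At most 4 genes of each other list were named, those called with the largest pooled change. Of 58676 genes, 95.2% had the same coordinates in GENCODE 29, whose exons gave the overlaps. Of the 44 members, 34 did. The count table gave ABCB6 and ABCF2 lengths of 5205 and 4448 bases, against 5234 and 4177 exon bases in GENCODE 29. Their shared percentages are therefore approximate.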

Additional observations from a re-analysis of the deposited data

Results flagged for a closer look

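Among the members, 2 differed between the hairpins by a test of the difference itself. ABCC3 was lower with hairpin 3 than with hairpin 1 by a log2 difference of -2.46 (edgeR adjusted p = 0.0001193), with all 3 hairpin 3 libraries below all 3 hairpin 1 libraries. ABCC1 was lower by -0.39 (edgeR adjusted p = 0.04676), again with no overlap between the groups, and its call did not hold in 9 of the alternatives, as given with its values above. No other of the 30 members passed in this fit, against 5.28% of all genes called lower and 6.3% called higher. With a replicate block 8 members were called, 3 higher and 5 lower, and 3687 of all genes.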

How the results depend on the processing

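The counts of called members were 14 pooled, 15 with hairpin 1, 14 with hairpin 3 and 2 between the hairpins. At adjusted p under 0.01 they were 5, 7, 8 and 1, and among changes of 2-fold or more in size they were 5, 6, 6 and 1. The shares of all genes at these limits were not worked out, so the counts only describe the members. The 2-fold counts against control include ABCA9 and ABCB6, and with hairpin 3 also ABCA10, which passed the minimum through the knockdown libraries alone. ABCA9 is also in the hairpin 3 count under 0.01. With each library dropped in turn the counts ran from 6 to 15 pooled, 9 to 15 with hairpin 1, 9 to 15 with hairpin 3 and 1 to 4 between the hairpins. The pooled count was 6 without control B and 9 without control C. With hairpin 1 it was 9 without control B or hairpin 1 B, and with hairpin 3 it was 9 without control B or hairpin 3 B or C. Between the hairpins the count was 5 with no filter on low counts, 1 with library totals, 4 with DESeq2 and 1 with only the libraries compared. Over all genes, 5280 were called pooled and 3374 without control B, and 1862 between the hairpins, which became 1024, 1227 and 1300 without hairpin 3 B, hairpin 3 C or hairpin 1 C. No scaling moved the median of all genes by over 0.1. Leaving out a library also lowers the number of samples. Of 120 values of a member in a comparison, 17 changed sign in at least 1 alternative, and 0 of these had been called. The changed values lay between -0.31 and 0.09, the lowest being ABCA4 with hairpin 3 without control B. Between the hairpins, ABCB6 ran from -0.24 to 0.36 and was -0.12 without hairpin 1 A, ABCC2 from -0.35 to 0.03 and ABCF3 from -0.01 to 0.07. ABCE1 with hairpin 3 ran from -0.18 to 0.02. Pooled, ABCA13 was 0.09 without control A.

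Same-letter libraries correlated, over 13762 genes, above the limit for pairing at every letter only between controls and hairpin 3. Over all groups, same-letter pairs were at 0.0573 to 0.483 and pairs of other letters at -0.458 to 0.188. Of 9 libraries, 6 correlated best with their own letter in both other groups. With a replicate block, 16 members were called with hairpin 3, ABCD4 among those added, and no member lost a call in any comparison. In the other comparisons, which include same-letter pairs under the limit, it called 15 members pooled, 19 with hairpin 1 and 8 between the hairpins. Over all 16068 genes it called 5793 pooled, 7816 with hairpin 1, 7277 with hairpin 3 and 3687 between the hairpins. Those added between the hairpins were ABCA1, ABCA2, ABCA13, ABCC10, ABCE1 and ABCG2 (adjusted p = 0.01475, 0.02034, 0.00558, 0.02377, 0.001161 and 0.02759), and ABCA13, ABCC10 and ABCF1 were among those added with hairpin 1 (0.01252, 0.008898 and 0.02687). At these depths the members under about 1 CPM, such as ABCA9, ABCA10 and ABCB6, rest on few counts.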

Other observations

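Of 24 tested genes of xenobiotic regulation and conjugation, 11 rose and 4 fell with hairpin 1, against 18% and 19.7% of all genes, and 6 rose and 7 fell with hairpin 3, against 16.5% and 18%. The list was not tested for a difference between the hairpins. The next 3 genes were named after their values were seen. NQO1, a quinone reductase, was at 350.5 CPM in the controls, 874 CPM with hairpin 1 and 302 CPM with hairpin 3, and hairpin 3 minus hairpin 1 was -1.53 on the log2 scale (edgeR adjusted p = 0.0001126). MGST1, a microsomal glutathione transferase, was at 138, 186 and 86 CPM (-1.11, edgeR adjusted p = 3.24e-05). GSS, glutathione synthetase, went the other way, at 76.8, 53.7 and 74.9 CPM (0.48, edgeR adjusted p = 0.02192). By the rule for other lists, the largest pooled changes were those of UGT1A6, GSTM4, SULT1A1 and GSTM3, at -3.92, 3.2, -2.1 and 1.92 (edgeR adjusted p = 0.0004458, 0.0001166, 0.004762 and 0.003464). GSTM4 and GSTM3 were at 0.501 and 0.55 CPM in the controls. UGT1A6 was at 0.0575 CPM with hairpin 3, and SULT1A1 at 0.23 CPM with hairpin 1. Each of these changes rests on few counts in at least 1 group.

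Of 16 tested drug and platinum transporters of other families, 2 rose and 5 fell in the pooled comparison, against 15.9% and 17% of all genes. SLCO2A1, a prostaglandin carrier, was 1 of the 2 and went from 0.113 CPM in the controls to 4.99 with hairpin 1 and 0.471 with hairpin 3. Its control level was below the minimum, so no p-value is given. SLCO4A1, SLC29A2, a nucleoside carrier, and SLC46A1, the proton-coupled folate carrier, fell by 2.29, 1.52 and 1.34 (edgeR adjusted p = 0.007044, 4.967e-05 and 0.0002635).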
